A study of Mus musculus with 6 samples.

Results

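The transcriptome of MIN6B1 cells under control transfection was described from the 3 arrays of siGFP cells, which are 3 of the 6 samples of the series. They were chosen by their labels alone, and no value of the circHIPK3 siRNA samples was used. MIN6B1 is a subclone of MIN6, a mouse insulinoma line derived from a tumour in mice that carried the SV40 T antigen under an insulin promoter, so the cells are a proliferating tumour model of the beta cell from a single line. The cells were kept in DMEM Glutamax with 15% fetal calf serum, penicillin, streptomycin and β-mercaptoethanol, and were transfected with siGFP for 48 h with the reagent that the labels call Lipofecatime RNAiMax. Total RNA was amplified, labelled with Cy3 and hybridised to 1-colour Agilent mouse expression arrays. The control cells carry an siRNA and a transfection reagent too, so the values describe transfected and not untouched cells. The labels number the replicates without saying that they came from separate cultures, and the 3 arrays share a slide and a scan, so the spread between them may be technical.

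A pancreatic beta cell makes proinsulin, folds it in the endoplasmic reticulum, cuts it with prohormone convertases and stores insulin with zinc, amylin and granins in dense-core granules. Glucose enters through a transporter, is broken down and raises ATP, which closes the channel made of Kir6.2 and SUR1, opens voltage-gated calcium channels and triggers granule release. A network of transcription factors that includes Pdx1, Nkx6-1, Mafa and Neurod1 maintains this identity, and mature beta cells keep a small group of otherwise common genes at a low level.

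Signals are given as log2 of the processed spot signal after the arrays were brought to a common 75th percentile, and every ± is an SD over the arrays (n = 3). A gene was called detected when its brightest probe was well above background on all 3 arrays, and the brightest probe stood for the gene. Probes differ in how strongly they bind their target, so an order of genes here is an order of probe signals and not of transcript numbers. Among 6252 pairs of detected probes for the same gene the median difference was 1.72 log2 units and the 90th percentile was 4.59, which is the scale against which any distance between genes should be read.

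Of 20659 genes with a symbol, 16577 were detected, which is 80.2%. A further 858 were well above background on some arrays only, and 3224 (15.6%) on none. Detected signals ran from 4.83 to 18.73 with a median of 10.88, and no spot was saturated. Between 77.7% and 79.8% of the spots on an array were well above background, and the unscaled 75th percentile of an array was 2939, 3669 or 3385.

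The arrays repeated each other closely. The median SD of a detected gene was 0.12, and 262 genes, or 1.58% of those detected, spanned more than 2-fold between arrays. Only 34 of these were among the 8288 genes above the median signal. Pearson's r across detected genes was 0.995 for replicates 1 and 2, 0.997 for replicates 1 and 3 and 0.996 for replicates 2 and 3, across genes that are not independent of each other. Replicate 2 stood apart most often, with 39 genes over 2-fold below both other arrays and 21 above both.

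The threshold of detection was lenient when set against gene families known mainly from sensory tissue. Olfactory receptors, the odorant sensors of the nose, were detected for 397 of 1070 genes, with a median over all of them of 4.02 and a 95th percentile of 9.05. A detected gene with a mean above 9.05 is called here above the olfactory level, a mark chosen after these values were seen. It was passed by 11276 genes, or 54.6% of all genes with a symbol. The shares of 80.2% detected and 54.6% above the olfactory level are the background against which each count of a gene list below is to be read. By construction about 5% of the olfactory receptor genes, here 54, lie above it. Olfr215 was the highest, at 16.50, 16.34 and 16.40 on the 3 arrays. Olfr544 and Olfr15, receptors that have been described in islet cells, gave means of 15.78 and 15.02. Vomeronasal receptors, which sense pheromones, were similar, with 118 of 252 detected and 12 above the olfactory level.

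**Figure D1:**
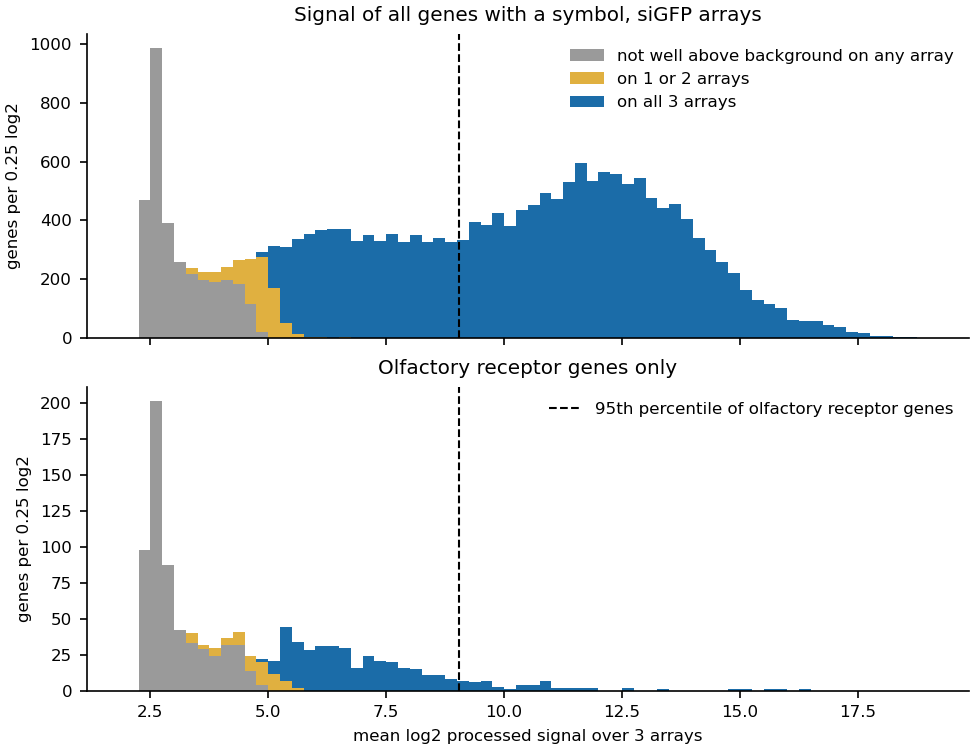
Number of genes per 0.25 log2 units of mean processed signal over the 3 siGFP arrays, for all 20659 genes (top) and for the 1070 olfactory receptor genes (bottom), coloured by the number of arrays on which the gene was well above background. The dashed line marks the olfactory level of 9.05, with the bulk of olfactory receptor genes to its left and a broad peak of all genes to its right.

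The highest signals of the cells belonged to hormone and granule genes. Chromogranin A, Chga, an acidic granule protein, was the highest of all, at 18.84, 18.62 and 18.74. Ins2, the mouse counterpart of the human insulin gene, followed at 18.77, 18.53 and 18.64. Ins1, the rodent-specific second copy, was the next, at 18.43, 18.31 and 18.36. The Ins2 values lay above the Ins1 values on every array, by 0.28 on average, which is far inside the difference that 2 probes of one gene show. The insulin copies are also very alike in sequence, and cross-hybridisation between their probes was not tested. Cck, the gut and brain peptide cholecystokinin, ranked 5 at 18.21, 18.27 and 18.35. Iapp, which encodes the amyloid peptide amylin that is co-secreted with insulin, ranked 12 at 17.87, 17.99 and 18.13.

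The bases before the start of 4 hormone genes or processing genes and of 1 glucose gene without a signal show how unlike these genes are in CG content. Each line gives the 250 bases before the annotated start from RefSeq on GRCm38.p6, read 5′ to 3′ on the strand of the gene, with CG dinucleotides in capitals. Ins1 lies at chr19:52264047-52264296 on the plus strand, Iapp at chr6:142298175-142298424 on the plus strand, Gcg at chr2:62483654-62483903 on the minus strand, Pcsk2 at chr2:143545883-143546132 on the plus strand and Hk2 at chr6:82774455-82774704 on the minus strand.
Ins1: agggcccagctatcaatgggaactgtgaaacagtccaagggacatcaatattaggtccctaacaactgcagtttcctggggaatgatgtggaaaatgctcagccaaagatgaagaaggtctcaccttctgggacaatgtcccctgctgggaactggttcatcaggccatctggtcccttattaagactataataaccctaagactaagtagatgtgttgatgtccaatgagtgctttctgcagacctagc
Iapp: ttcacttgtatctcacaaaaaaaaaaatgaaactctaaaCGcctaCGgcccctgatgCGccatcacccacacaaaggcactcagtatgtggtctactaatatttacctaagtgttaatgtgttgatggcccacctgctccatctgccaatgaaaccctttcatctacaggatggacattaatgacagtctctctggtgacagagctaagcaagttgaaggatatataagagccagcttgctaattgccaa
Gcg: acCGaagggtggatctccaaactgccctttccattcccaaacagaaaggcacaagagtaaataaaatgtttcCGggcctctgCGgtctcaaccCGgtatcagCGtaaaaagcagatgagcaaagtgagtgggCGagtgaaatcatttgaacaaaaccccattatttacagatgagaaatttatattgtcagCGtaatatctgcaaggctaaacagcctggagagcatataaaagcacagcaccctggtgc
Pcsk2: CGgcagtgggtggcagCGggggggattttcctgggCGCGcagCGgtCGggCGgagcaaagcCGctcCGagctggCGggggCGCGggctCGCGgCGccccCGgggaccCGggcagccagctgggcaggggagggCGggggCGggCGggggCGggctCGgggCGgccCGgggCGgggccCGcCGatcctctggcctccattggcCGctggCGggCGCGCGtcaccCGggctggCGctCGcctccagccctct
Hk2: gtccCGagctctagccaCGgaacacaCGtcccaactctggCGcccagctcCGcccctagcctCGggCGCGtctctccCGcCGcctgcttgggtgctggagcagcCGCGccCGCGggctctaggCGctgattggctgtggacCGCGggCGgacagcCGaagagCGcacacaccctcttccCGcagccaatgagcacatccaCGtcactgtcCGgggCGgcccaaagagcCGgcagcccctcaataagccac
The window of Ins1 held 0 CG dinucleotides, that of Iapp 3, that of Gcg 7, that of Hk2 25 and that of Pcsk2 35. Ins1 and Pcsk2 were both among the 100 highest genes, and Hk2, with the second richest of these windows, was not well above background on any array.

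All 10 measured genes for beta cell hormones and prohormone processing were detected and above the olfactory level, with a median of 16.98. Cpe, carboxypeptidase E, which trims the basic residues left by the convertases, ranked 25 at 17.72, 17.64 and 17.72. Pcsk2, the convertase PC2, ranked 47 at 17.28, 17.27 and 17.40, and Pcsk1, the convertase PC1/3, ranked 281 at 16.18, 15.99 and 16.20. Scg5, the chaperone of PC2, had a mean of 16.63 ± 0.05, and Ero1b, an oxidase that helps form disulfide bonds in proinsulin, 15.93 ± 0.08. Pam, the enzyme that amidates peptide ends, was the lowest of the list at 10.81 ± 0.17, next to the median of all detected genes.

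The 10 granule proteins were also all detected, with a median of 16.69. Chromogranin B, Chgb, ranked 13 at 18.00, 17.79 and 17.99, and secretogranin II, Scg2, ranked 36 at 17.60, 17.39 and 17.48. Slc30a8, the transporter that loads zinc into insulin granules, gave 15.34 ± 0.03. The insulinoma-associated phosphatases Ptprn and Ptprn2, which are granule membrane proteins and autoantigens in type 1 diabetes, were the lowest of the list at 13.32 ± 0.33 and 11.08 ± 0.07. Most genes of both lists were thus far above the median on every array, and 8 of their 19 distinct genes were among the 100 highest.

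The rest of the first 100 included genes of translation, folding and housekeeping, though most of it lay outside these lists. It held 18 cytosolic ribosomal proteins, 9 genes of the housekeeping list and 4 of the endoplasmic reticulum list. Rpl41, a very short ribosomal protein, ranked 11 at 18.09 ± 0.08, and 82 of the 85 cytosolic ribosomal protein genes measured were detected, with a median of 16.53. Gapdh, the glycolytic enzyme, ranked 7 at 18.22 ± 0.05, Tpt1, the translationally controlled tumour protein, ranked 8 at 18.16 ± 0.05, and Actb, beta actin, ranked 29 at 17.61 ± 0.10. Mt2, a metallothionein that binds zinc and copper, ranked 20 at 17.73 ± 0.07.

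Several names in the first 40 rested on 1 of several probes. Of these 40 genes, 23 had more than 1 probe, and in 10 of the 23 the dimmest probe lay below the median of all detected genes. Cfap74, a protein of motile cilia, ranked 9 by a probe at 18.14 while its dimmest probe gave 7.52. Elk1, a serum-responsive transcription factor, ranked 15 at 17.87 with another probe at 7.29, and Kctd14 ranked 27 at 17.66 with another at 2.47. When detected probes were averaged, 22 of the 40 stayed in the first 40 and 55 of the first 100 stayed in the first 100. Chga, Ins2, Ins1, Cck, Iapp and Chgb have 1 probe each, so no second probe bears on their place. Exosc2, a subunit of the RNA exosome, also has 1 probe and ranked 4 at 18.41, 18.20 and 18.32.

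**Figure D2:**
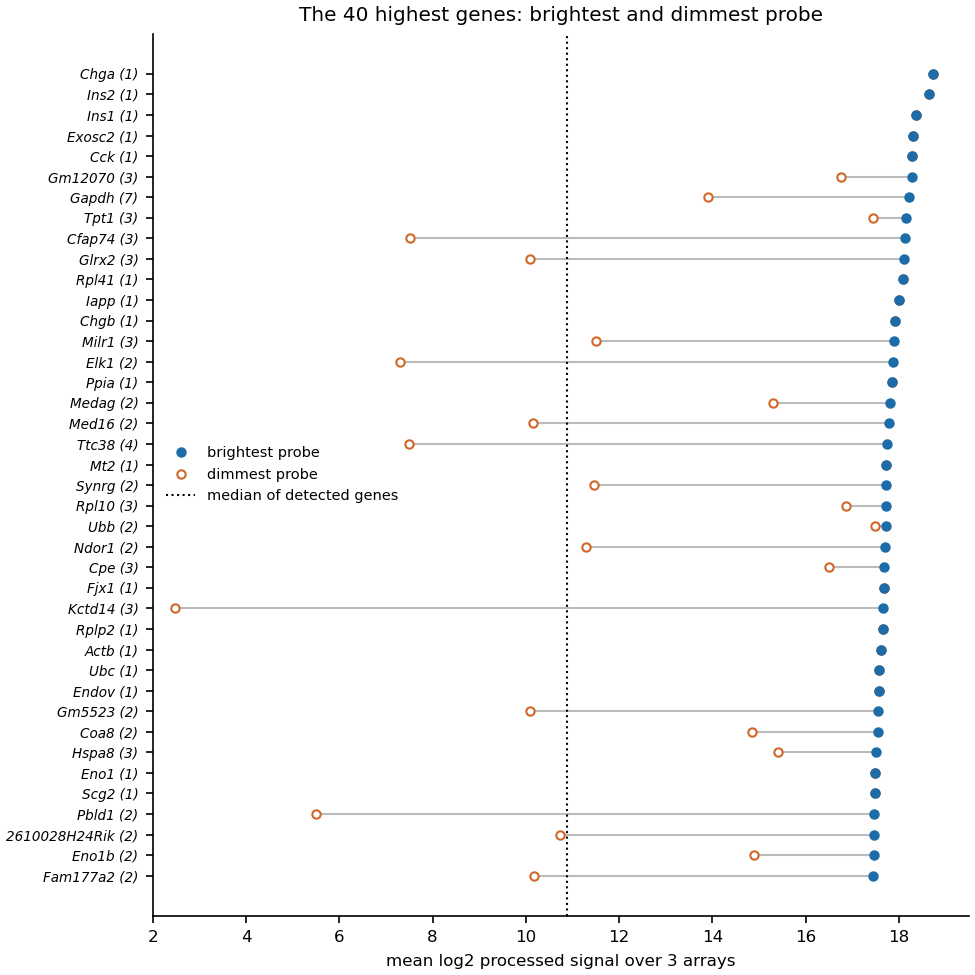
Mean log2 processed signal over the 3 siGFP arrays of the brightest (filled) and dimmest (open) probe of the 40 highest genes, with the number of probes in brackets and the median of detected genes as a dotted line. The hormone and granule genes other than Cpe have 1 probe, while Cfap74, Elk1, Ttc38, Kctd14 and Pbld1 have probes more than 10 log2 units apart.

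Of 24 beta cell transcription factors measured, 22 were detected, 91.7% against 80.2% of all genes, and 18 of the 24 were above the olfactory level, against 54.6% of all genes. Mlxipl, the glucose-responsive factor ChREBP, was the highest at 15.47, 15.78 and 15.62, though its other probe gave 11.84. Insm1, a zinc finger factor of endocrine differentiation, followed at 15.15, 15.27 and 15.27. Nkx6-1, which keeps beta cells from taking alpha cell features, gave 14.52, 14.25 and 14.58. Mafa, an activator of insulin transcription in mature beta cells, gave 13.90, 13.79 and 14.01, Neurod1 13.79, 13.99 and 13.89, and Pdx1, the central pancreatic homeobox factor, 13.45, 13.25 and 13.57. Nkx6-1, Mafa, Neurod1 and Pdx1 thus fell within little more than 1 log2 unit of each other, a range too small to order them. The list as a whole was wider, with Isl1 at 12.97 ± 0.11 and Pax6 at 10.96 ± 0.11, whose second probe gave 7.60.

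Factors of the endocrine progenitor were measured too. Neurog3, which starts the endocrine programme in the embryo and is low in adult beta cells, gave 14.17, 14.03 and 14.12 from its only probe. Pax4, a factor of the beta lineage in development, gave 11.22, 11.45 and 10.88. Gata6 was the least repeatable of the list, at 6.41, 6.98 and 8.06. Sox9, a factor of progenitors and duct cells, gave 3.01, 2.39 and 2.60 and was not well above background on any array, and Onecut1 was the same at 2.79, 2.32 and 2.51. Mnx1 had no probe matched to its symbol.

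**Figure D3:**
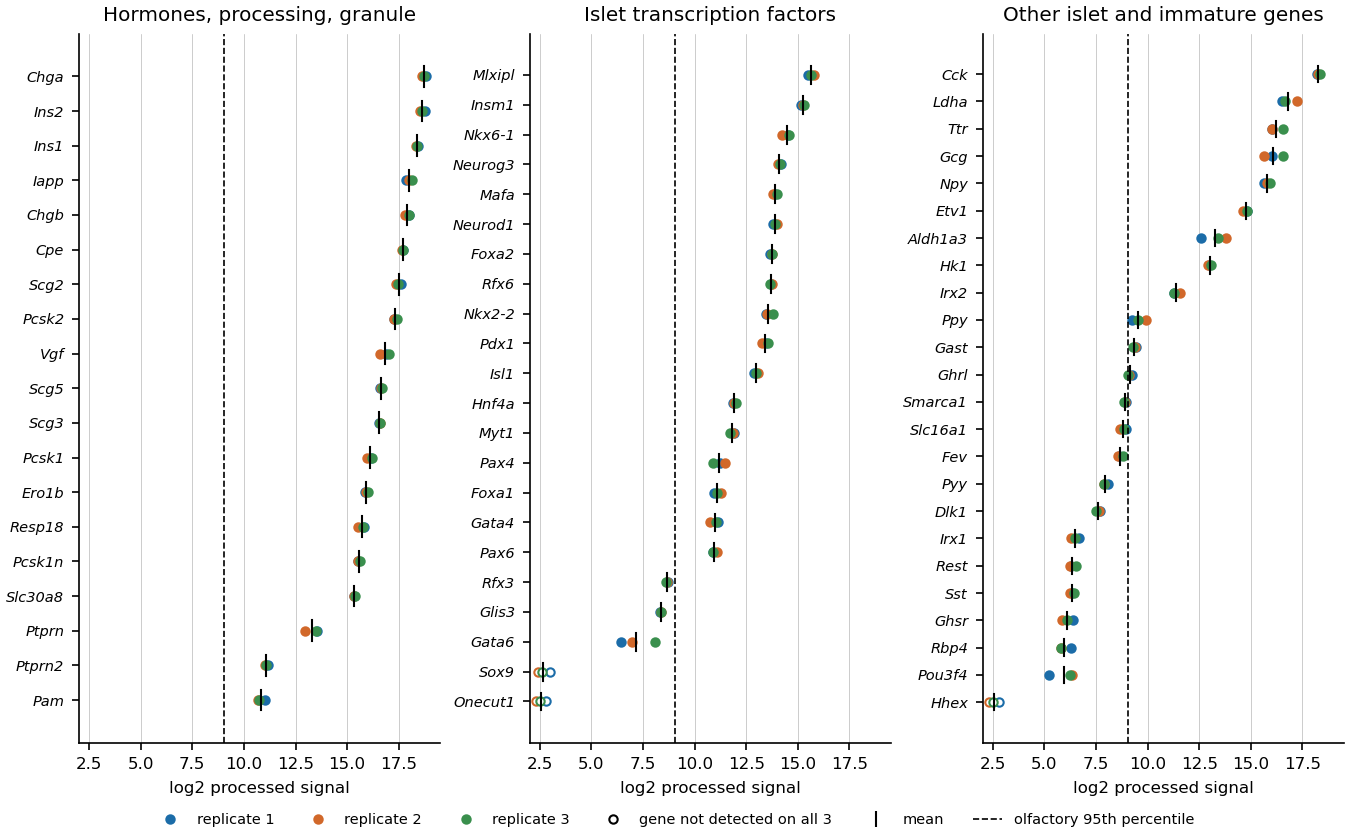
Log2 processed signal of each siGFP array (coloured points) and their mean (bar) for hormone, processing and granule genes, islet transcription factors, and genes of other islet cells or of immature beta cells, with the olfactory level of 9.05 as a dashed line and open points for genes not detected on all 3 arrays. Hormone and granule genes lie above 10 throughout, Gcg and Ttr lie above 15.5, and Hhex, Sox9 and Onecut1 lie near 2.5.

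Genes of the alpha cell covered a wide range of signals. Gcg, the glucagon precursor, ranked 289 at 16.01, 15.66 and 16.57, and Ttr, transthyretin, which alpha cells make in quantity, ranked 256 at 16.03, 16.03 and 16.56. Irx2 gave 11.38 ± 0.17 and Irx1 6.47 ± 0.20. In all, 7 of 9 alpha cell genes were detected and 3 were above the olfactory level, and whether the Gcg signal came from a few cells or from all cannot be told apart in bulk RNA. The same limit holds for every gene here, since fewer cells that express a gene and less RNA per cell give the same signal.

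The hormones of the other islet cells were low. Somatostatin, Sst, the delta cell hormone, gave 6.34, 6.22 and 6.43, below the olfactory level. Pancreatic polypeptide, Ppy, gave 9.23, 9.90 and 9.52, and ghrelin, Ghrl, 9.22, 9.11 and 9.05, both close to that level. Hhex, the delta cell regulator, was not detected at 2.81, 2.30 and 2.51. Etv1 was the exception of the list at 14.79, 14.63 and 14.82, with a second probe at 8.06.

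Besides insulin, amylin and glucagon, other peptide genes gave signals. After Cck came Npy, neuropeptide Y, at 15.64, 15.80 and 15.95. Secretin, Sct, gave 13.37 ± 0.42, Penk, the enkephalin precursor, 12.77 ± 0.11, Gal, galanin, 12.67 ± 0.26, and Pomc, the precursor of corticotropin, 11.88 ± 0.23. Of 26 genes on this list, 18 were detected, which is below the 80.2% of all genes, and 10 were above the olfactory level. Vip, Crh, Ucn, Tac1, Avp and Tshb were not well above background on any array.

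Genes for glucose sensing and coupling were detected for all 16 measured, with 13 above the olfactory level. Abcc8, the SUR1 subunit of the ATP-sensitive potassium channel, was the highest at 16.84, 16.86 and 17.01, and its second probe gave 16.46. G6pc2, the islet glucose-6-phosphatase, gave 15.42, 15.55 and 15.48. Kcnj11, the Kir6.2 pore of the same potassium channel, gave 10.05, 9.96 and 10.05, with a second probe at 7.78. Slc2a2, the GLUT2 transporter that rodent beta cells use, gave 7.83, 7.91 and 7.95, below the olfactory level on each array. Slc2a1, the widely expressed GLUT1, gave 14.29, 14.92 and 14.69, which lies further from Slc2a2 than the 4.59 units given above for probes of a single gene.

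All 18 receptors that modulate insulin secretion were detected, 17 of them above the olfactory level. The highest were inhibitory receptors, with the somatostatin receptors Sstr3 at 14.74 ± 0.09 and Sstr5 at 14.05 ± 0.14 and the adrenoceptor Adra2a at 14.35 ± 0.07. The prolactin receptor Prlr lay close to these at 13.93 ± 0.27, with a second probe at 10.63. The incretin receptors Gipr and Glp1r gave 11.96 ± 0.05 and 11.60 ± 0.08, and the fatty acid receptor Ffar1 10.26 ± 0.09. Insr, the insulin receptor, gave 9.27, 9.85 and 9.22. Gpr119, a lipid-sensing receptor, was the lowest at 6.66 ± 0.26.

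Markers of maturity and immaturity were both present. All 10 maturity genes were detected and 9 were above the olfactory level, with Ero1b, G6pc2 and Slc30a8, given in this report, among the highest. Of 10 immaturity genes, 9 were detected and 6 were above that level, 60.0% against 54.6% of all genes. Ucn3, urocortin 3, which rises when mouse beta cells mature, gave 9.30, 9.64 and 9.39, close to the olfactory level. Of genes that are high in immature or dedifferentiated beta cells, Cck and Npy were described above, and Aldh1a3 gave 12.59, 13.77 and 13.43. Rest and Dlk1 of the same list lay below the olfactory level, at 6.34 ± 0.14 and 7.62 ± 0.12. Ldha, lactate dehydrogenase A, which beta cells normally keep low, ranked 125 at 16.52, 17.25 and 16.66. Of 20 genes that mature beta cells normally repress, 16 were detected, close to the share of all genes, and 11 were above the olfactory level. Slc16a1, the lactate and pyruvate carrier MCT1 whose silence protects beta cells from responding to exercise, gave 8.97, 8.66 and 8.85, below that level. Hk2, Pdgfra and Mgst1 of this list were not well above background on any array.

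The cells gave high signals for division. All 18 proliferation genes were detected and above the olfactory level, with a median of 14.38. Pcna, the replication clamp, gave 15.77, 15.92 and 15.80, and Mki67, the antigen Ki-67, 15.53, 15.66 and 15.51. Cdk4 gave 15.93 ± 0.06, and several cell cycle inhibitors also gave high signals, with Cdkn2c at 15.91 ± 0.04, Cdkn2a at 15.39 ± 0.06 and Cdkn1b at 14.89 ± 0.06. Cdkn1a, p21, a target of p53, gave 12.05 ± 0.14 and Cdkn1c, p57, 8.02 ± 0.20.

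The endoplasmic reticulum list of 23 folding and stress genes was detected in full and above the olfactory level throughout, with a median of 14.96. Hspa5, the chaperone BiP, ranked 44 at 17.30, 17.35 and 17.48, and Pdia6 and Hsp90b1 ranked 52 and 71. Atf4, the stress-responsive transcription factor, gave 17.06 ± 0.06, and Xbp1, a factor of the unfolded protein response, 15.64 ± 0.09. Ddit3, the stress factor CHOP, gave 12.49, 12.68 and 11.93. Complex I of the respiratory chain was likewise detected in all 37 subunits, with a median of 15.01.

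Neuronal genes formed the most complete of the other cell lists. All 20 were detected, 17 above the olfactory level, with a median of 13.38. Ddc, which makes dopamine and serotonin from their precursors, gave 16.12 ± 0.12, and Th, tyrosine hydroxylase, the first enzyme of dopamine synthesis, 15.34, 14.90 and 14.74. The neurofilament genes Nefl and Nefm gave 15.71 ± 0.09 and 15.66 ± 0.09, and Syp, a vesicle protein shared by neurons and endocrine cells, 15.60 ± 0.28. Gad2, the GABA-making enzyme GAD65, gave 13.17 ± 0.59, and Gad1 only 5.93 ± 0.15. The neuron marker Rbfox3 gave 6.54 and Tph2 gave 7.95, and both lay below the olfactory level, as Gad1 did. Beta cells are known to share much of this programme with neurons, including the vesicle and synaptic genes.

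Exocrine lists were detected about as often as all genes but fewer members passed the olfactory level. Of 18 acinar genes, 15 were detected, 83.3% against 80.2% of all genes, and 5 were above the olfactory level, 27.8% against 54.6%. Bhlha15, a factor of secretory cells, led them at 14.15 ± 0.44, while the digestive enzyme genes Cpa1, Cela1 and Amy2a5 gave 6.86 ± 0.19, 6.07 ± 0.15 and 6.14 ± 0.05, and Ptf1a, the acinar regulator, was not detected. Of 12 duct genes, 10 were detected, also 83.3%, and 5, or 41.7%, were above the olfactory level, with Spp1, osteopontin, at 14.90 ± 0.05 and the epithelial keratins Krt7 and Krt8 at 13.86 ± 0.13 and 13.45 ± 0.22. Krt19 gave 6.66, 5.41 and 5.29.

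Endothelial genes were detected for 5 of 10 and fibroblast genes for 7 of 12, with 3 and 2 above the olfactory level, all below the shares of 80.2% and 54.6% over all genes. The defining endothelial genes Cdh5 and Tie1 were at background at 2.55 ± 0.25 and 2.53 ± 0.25, while Plvap gave 12.95 ± 0.20 and Kdr, a receptor for vascular growth factor, 12.43 ± 0.19 with a second probe at 4.28. The fibroblast receptors Pdgfra and Pdgfrb were at background, and the fibrillar collagens Col3a1 and Col1a1 gave 5.45 ± 0.17 and 9.46 ± 0.21. Sparc, a matrix protein of many cell types, gave 12.14 ± 0.37 with a second probe at 2.81. Muscle genes were detected for 6 of 12, with none of these above the olfactory level and Myod1, the myogenic regulator, the highest at 8.43 ± 0.13. Of 8 red cell genes 3 were detected, with the alpha globin gene Hba-a2 at 14.27 ± 0.10 and the beta globin gene Hbb-bs at background. Of 8 adipocyte genes 6 were detected, near the share of all genes, with Adipoq, adiponectin, at background and Pparg the highest at 10.39 ± 0.03.

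Leukocyte genes gave unlike signals within 1 list. Ptprc, the CD45 antigen of nearly all white cells, gave 7.20 ± 0.25, and Lyz2, lysozyme of macrophages, was at background at 2.85, 2.37 and 2.58. Cd3e, a subunit of the T cell receptor complex, nevertheless gave 13.27, 13.20 and 13.46, and C1qa, a complement subunit, 12.91 ± 0.21 against 7.65 ± 0.14 for its partner C1qb. Of 11 leukocyte genes measured, 10 were detected, 90.9% against 80.2% of all genes, and 5 were above the olfactory level, 45.5% against 54.6%. Prm2, a sperm protamine, gave 13.71 ± 0.13 while Prm1 was at background at 3.26 ± 0.53, and Nanog gave 11.55 ± 0.08 while its partner Sox2 was at background at 2.72 ± 0.27. All but Itgam, Csf1r and Adgre1 of the leukocyte genes named or counted have 1 probe, so a second probe could not be compared.

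Hox genes were detected less often than the 80.2% of all genes. Of 39 Hox genes, which set position along the body axis, 15 were detected, 21 were not well above background on any array and 2 were above the olfactory level. Hoxb3 was the highest at 13.84, 13.58 and 14.04, with a second probe at 2.51, and Hoxa9 followed at 12.34. Other developmental families had larger shares than the Hox genes, with 11 of 19 Sox genes, 38 of 46 Fox genes and 15 of 19 Wnt ligands detected. These are 57.9%, 82.6% and 78.9%, so the Sox share was below that of all genes and the others near it. Above the olfactory level were 26.3%, 41.3% and 36.8%, each below the 54.6% of all genes. Sox5 was the highest Sox gene, at 16.02 from 1 probe and at 5.94 from the other. The X-linked transcript Xist gave 5.81 ± 0.03, and the 4 Y-linked genes measured were not well above background on any array.

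Between detected and undetected genes there was a narrow overlap in signal. The lowest detected genes were Hcar2 at 4.83, Rnf151 at 4.86 and Zpld1 at 4.89, and the highest genes that were not well above background on any array were Cacng8 at 4.96, Apoh at 4.94 and Cngb3 at 4.93. Signals near 5 thus fell on either side of the detection call. The spread grew towards this end, with a median SD of 0.18 in the lowest 25% of detected genes and 0.09 in the highest 25%.

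Paralogs were compared in 53 families with 294 measured members, of which 250 were detected and 36 were not well above background on any array. In 19 families at least 1 member was not detected. Of 197 neighbouring pairs of detected members, 172 kept the same order on all 3 arrays. The order was set by the mean of these same arrays, so the count cannot show how often array noise set it. Probe differences are a further limit. The 90th percentile between probes of a single gene was 4.59 log2 units. Only the 14 pairs that lay further apart are called set apart. By definition 10% of probe pairs of a single gene lie as far apart, so probe differences alone can give such distances. The 14 of 197 cannot be set against that share. They are neighbours in the sorted order of a family, while the probe pairs are all pairs of a gene. Among the members as listed, the highest was set apart from the second in 5 families.

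These 5 families concern glucose breakdown, its products or its coupling to secretion. Abcc8 stood 11.40 above Abcc9, the SUR2 subunit of heart and muscle channels, which gave 5.67, 5.34 and 5.49. Pkm, the pyruvate kinase of most tissues, at 14.89, 15.04 and 14.98, was set apart from Pklr, the liver and red cell form, at 7.01, 7.03 and 6.87. Ldha stood 7.06 above Ldhb, which gave 9.78, 9.60 and 9.88, by the brightest of its 3 probes, and the dimmest of them gave 10.28, close to Ldhb. Slc16a3, the lactate exporter MCT4, at 14.49, 15.37 and 14.82, stood 5.79 above Slc16a7, MCT2, and was thus first of its family above Slc16a1. Eno1 at 17.49 ± 0.09 stood 4.71 above Eno2, the neuron-specific enolase, at 12.78 ± 0.09. Eno1b was left out of the listed family and ranked 39 of all genes at 17.47 ± 0.08, next to Eno1. Eno1 was thus set apart only among the listed enolases.

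In the hexokinase family Hk1 gave 13.00 ± 0.07, and its second probe gave 8.70. Hkdc1 gave 9.49 ± 0.27 and Hk3 7.24 ± 0.29. Hk2, the insulin-responsive hexokinase of muscle and many tumours, was not well above background at 2.93, 2.42 and 2.61. Among glucose transporters the fructose carrier Slc2a5 was first at 15.32, 15.47 and 15.49, 0.79 above Slc2a1, and Slc2a4, the insulin-regulated GLUT4, gave 8.76 ± 0.21. Slc2a10 was not detected.

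In the secretion machinery most families had several members detected. Among 16 synaptotagmins, calcium sensors and relatives of the release machinery, Syt13 was first at 16.80, 16.80 and 17.14. The next were Syt6 at 12.35 ± 0.17, whose other probe gave 5.38, and Syt4 at 12.21 ± 0.14, while Syt7 and Syt9, both linked to insulin release, gave 9.35 ± 0.07 and 11.02 ± 0.07. Vamp2 and Snap25, the forms of the neuronal fusion complex, were each first in their families at 14.56 ± 0.17 and 14.21 ± 0.09. Their partner syntaxin, Stx1a, was the lowest of 5 syntaxins at 9.22 ± 0.05. Rab3a gave 15.66 ± 0.26 and Rab27a 13.67 ± 0.06 against 6.64 ± 0.03 for Rab27b.

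**Figure D4:**
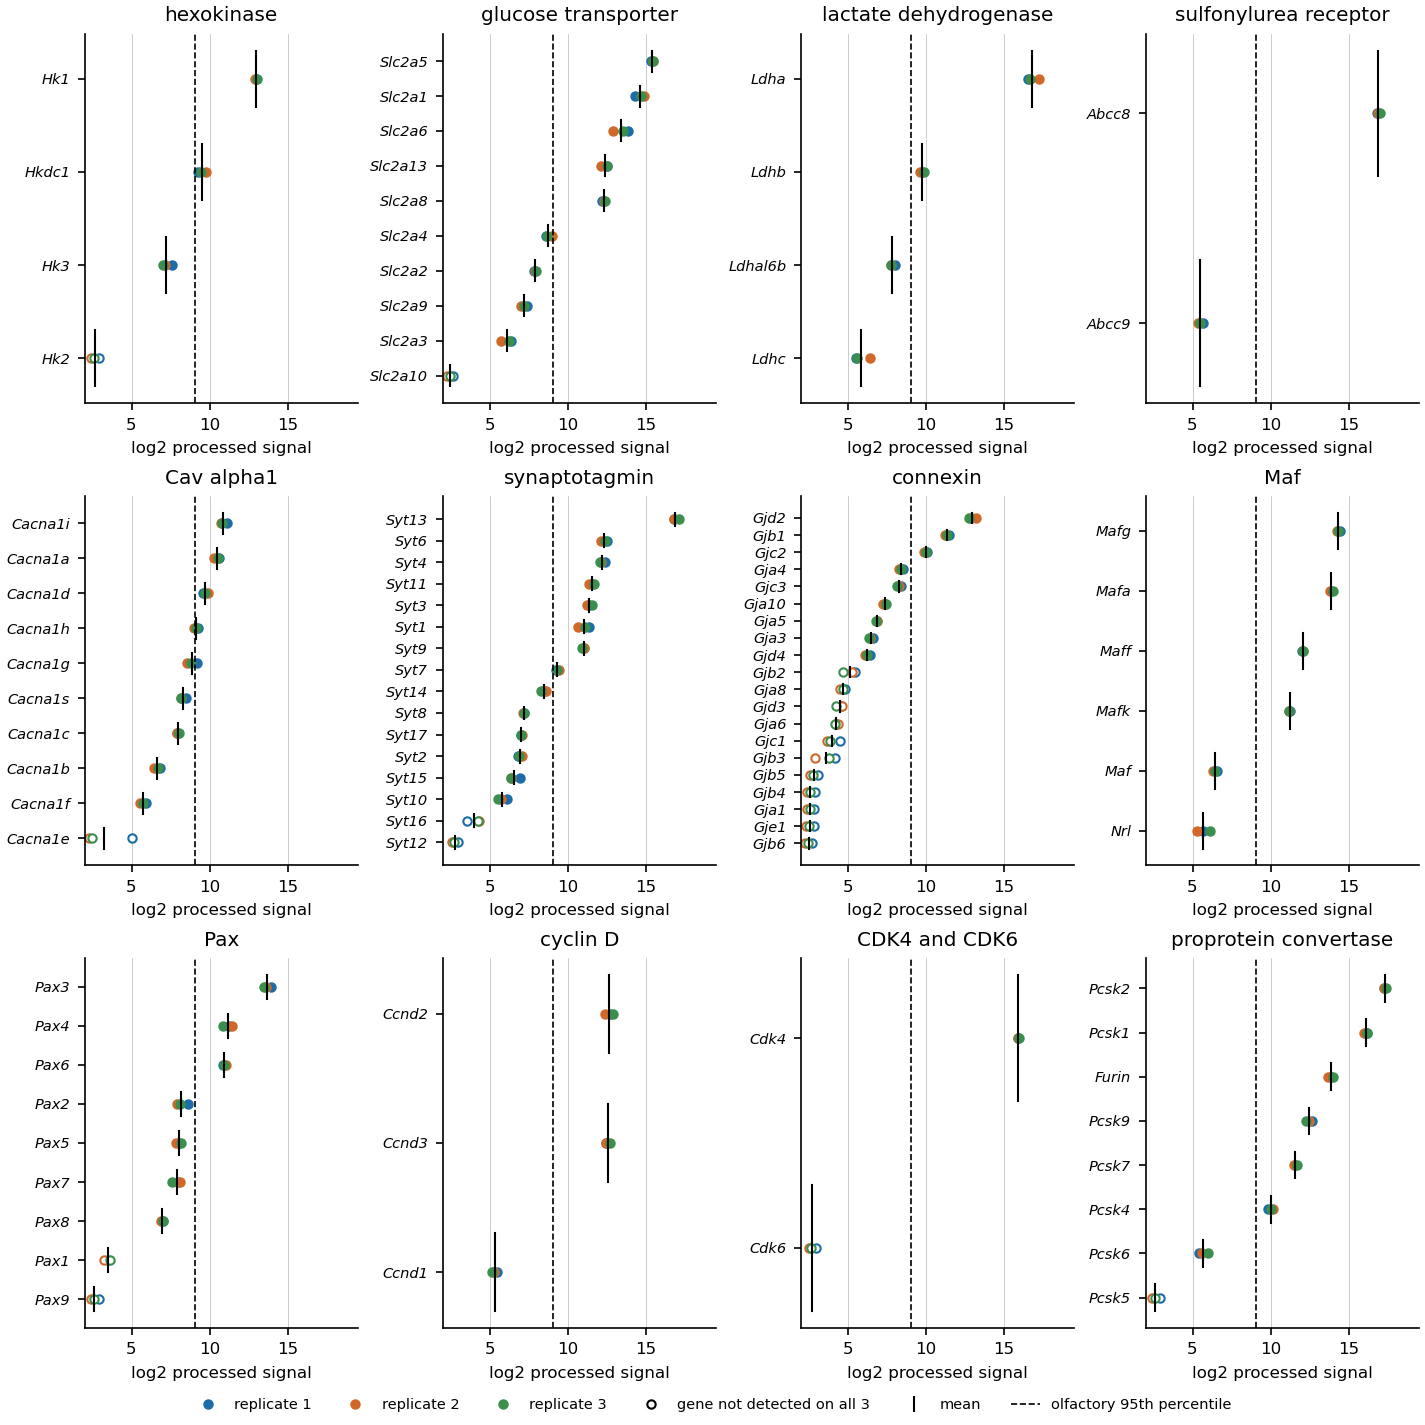
Log2 processed signal of each siGFP array (coloured points) and their mean (bar) for members of 12 paralog families, with open points for genes not detected on all 3 arrays and the olfactory level of 9.05 as a dashed line. Abcc8 is set apart from Abcc9, Hk2, Cdk6, Pcsk5 and Gja1 lie near 2.6, and in most families neighbours are closer than the 4.59 units that separate probes of a single gene.

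The pores of calcium channels gave signals near the median of detected genes or below it. Among 10 calcium channel pores, Cacna1i and Cacna1a were first at 10.88 ± 0.22 and 10.49 ± 0.18, ahead of Cacna1d at 9.73 ± 0.16 and Cacna1c at 7.95 ± 0.08, the L-type channels of beta cells. Cacna1e was not well above background on any array, at 3.25 ± 1.53. Kcnj8, the alternative Kir6.1 pore, was not detected either. Of the connexins, the gap junction proteins, Gjd2, the beta cell connexin, was first of 20 at 12.90, 13.20 and 12.77, and Gja1, the most widespread connexin, was at background at 2.83, 2.38 and 2.56.

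Some members of the cell cycle families lay far apart and others close together. Cdk4 was detected by each of its probes, the dimmest at 13.39, while its close relative Cdk6 was at background at 2.95, 2.48 and 2.67. Ccnd2 and Ccnd3 gave 12.67 ± 0.24 and 12.57 ± 0.15, and Ccnd1, the cyclin D1 that partners both kinases, gave 5.50, 5.27 and 5.18 and was set apart by 7.25. Mycn gave 12.20 ± 0.22 and Myc 10.84 ± 0.14, a pair that was not set apart.

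In the regulator families named here the highest member was not set apart from the second. Mafa at 13.90 ± 0.11 was second to the small Maf protein Mafg at 14.35 ± 0.09. Nkx6-1 and Nkx2-2 were first and second of 12 Nkx genes, Neurog3 and Neurod1 of 7 in their family, and Rfx6 and Foxa2 led theirs at 13.69 ± 0.06 and 13.73 ± 0.05. In the Pax family Pax3, a neural crest and muscle factor, was first at 13.69 ± 0.25 from 1 probe and at 3.06 from the other, ahead of Pax4 and of Pax6 at 10.96 ± 0.11. Hnf4a gave 11.91 ± 0.08, against 6.88 ± 0.07 for Hnf4g.

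Redox enzymes also ranged from high signals to background. Sod1 gave 16.77 ± 0.15 and Sod2 14.22 ± 0.03. Gpx2, Gpx4 and Gpx1, which reduce peroxides, gave 14.60 ± 0.29, 14.41 ± 0.03 and 14.04 ± 0.32, close together, while Gpx3, Gpx5, Gpx6 and Gpx7 were not detected. Ero1b led Ero1a at 11.40 ± 0.34 by 4.53, just short of the distance used here. Among beta-gamma and alpha crystallins, the lens proteins, Cryba2 was first of 9 at 12.98 ± 0.11.

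Upstream sequence was counted for the 16373 measured genes with a RefSeq window of 250 bases before the start. Genes detected on all arrays had a median of 13 CG dinucleotides there and undetected genes a median of 2. Over detected genes in 5 equal groups of 2636 by signal, the medians from lowest to highest were 4, 10.5, 15, 17 and 17. Olfactory receptors had a median of 1 and cytosolic ribosomal proteins 17.5. Hormone and processing genes had a median of 8.5 over 8 genes, between these sets, with 25th and 75th percentiles of 4.5 and 17.6. Granule genes had a median of 15 over 7 genes, and the 75 of the first 100 genes with a window had 16. These counts describe the windows, and no cause was tested.

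The letters TATAAA were searched on the strand of the gene from 40 to 16 bases before the start. They were found for 3.04% of the 16373 genes with a window. Shares here are of genes, and some genes have several windows. The share was 5.07% for undetected genes and 2.50% for detected ones. It was 26.1% of the 23 peptide hormone genes with a window, a list that includes the low and undetected hormones. It was 0 for the 8 beta cell hormone and processing genes with a window. Gcg has the letters in the window printed above. CCAAT or its reverse complement ATTGG, searched anywhere in a window, was found for 39.3% of all genes with a window. It was found for 87.5% of the 16 proliferation genes with a window. A match describes these letters in this window and nothing about a factor.

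**Figure D5:**
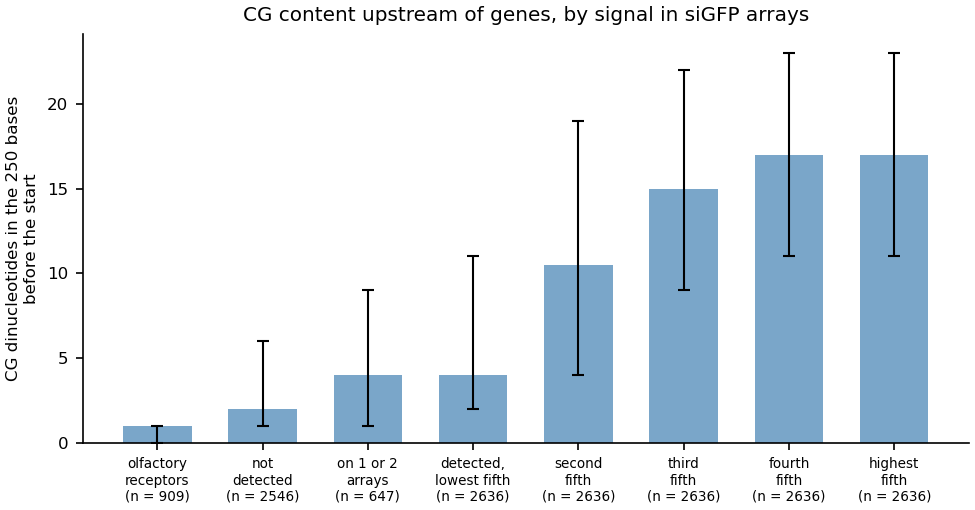
Median number of CG dinucleotides (bars, with the 25th to 75th percentile as lines) in the 250 bases before the start, for olfactory receptor genes, undetected genes, genes on 1 or 2 arrays and detected genes in 5 equal groups by signal in the siGFP arrays. The median rises from 1 for olfactory receptors and 2 for undetected genes to 17 in the upper groups, with overlapping ranges.

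The genes that repeated least among those above the median signal were few. Gdf5, a growth factor of joints, gave 13.05, 13.95 and 7.56, and Prss28, Nle1 and Capn5 were also lowest on replicate 3. Dgkb, Greb1, Dbh, Opn3, Matn1 and Ecel1 were all lowest on replicate 2, as Dbh, which makes noradrenaline, at 13.38, 11.82 and 12.96. The means of these genes rest on arrays that differ by more than 1 log2 unit.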

How the data were processed

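The 3 siGFP arrays were read from the deposited scanner files. Per the file headers, Agilent Feature Extraction 11.0.1.1 made the intensity of each spot, background-subtracted and spatially detrended, and the array design used mm9. Control spots and spots with an outlier flag were dropped, and replicate spots of each probe were averaged. Arrays were shifted on the log2 scale to a common 75th percentile. The authors also deposited a value table of log2 signals whose columns have equal medians, 9.80 each, and correlate with the scanner values at 1.00, so its direction is the same. The steps that made it were not described in the labels or headers. Gene symbols came from a match of each probe's accession to a RefSeq gene table of GRCm38.p6, so no array coordinates are given. Of 39429 probes, 27234 matched a symbol. Names in 28 marker lists, 53 paralog families and 27 name families (598 of 602 listed symbols measured) were described.

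Genes named are the 40 highest, the 20 highest outside the lists, list members, the 10 on either side of the detection threshold, the 10 least repeatable above the median, and up to 4 per name family. Members and lists were chosen with earlier results of these data known. No test was made, because 1 group has nothing to be compared with, and the number of arrays limits the precision. The ranking code was tested on simulated data. The alternatives were detection on 2 of 3 arrays, averaged probes, normexp with offset 50, quantile normalization, the value table, flagged spots kept, no filter and each array left out. Python 3.11.15, R 4.3.3 and limma 3.58.1 were used. The circHIPK3 siRNA samples were not analysed here. A few genes of the lists are counted but not reported here.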

Additional observations from a re-analysis of the deposited data

How the results depend on the processing

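No paired analysis was possible because only 1 group was analysed and the results come from no test. The choice of probe moved the ranking most: with detected probes averaged, 55 of the first 100 genes stayed there, 46 of 53 families kept the same highest member, and 53 of 526 named genes moved by over 10 percentile points. With normexp, for which the files hold median but no mean foreground, the median difference between probes of a gene was 1.52, against 1.72, and the first 100 kept 92. Leaving out each array gave 16620 to 16805 detected genes, 96 to 97 of the first 100, 308 to 311 detected list members against 307, the same highest member in all 53 families, and probe differences of 1.71 to 1.73. Detection on 2 of 3 arrays gave 16933 genes, and the value table lists 17382. Of 76 undetected list members, 5 are in the value table, and none was gained by keeping flagged spots. The 2-array rule and leaving out an array could not gain any, because such a member is well above background on no array. Normexp does not touch the detection call and gave no such count.

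Signal over background limits the low end: near 5 log2 units detected and undetected genes overlap, and olfactory receptors reach far above it. Genes with 1 probe, 15183 of 20659, have no second measurement. Of 5476 genes with several probes, 689 had both a detected and an undetected one.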

Other observations

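The 3 arrays of siGFP cells differed slightly by gene group, a pattern chosen after the values were seen. Among all 16577 detected genes, 49.4% were lowest on replicate 2 and 28.1% highest there. Of the 23 endoplasmic reticulum genes, 17 were lowest on replicate 2, with P4hb at 16.90, 16.56 and 17.08 and Calr at 16.18, 15.80 and 16.32. This was not particular to them. Lowest on replicate 2 were also 8 of 10 secretory granule genes, 7 of 10 detected duct genes and 10 of 15 detected acinar genes. Of the 18 proliferation genes, 14 were lowest on replicate 1, where 4051 of the 16577 detected genes were lowest, and 2 were lowest on replicate 2.

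Several genes of glucose breakdown lay the other way. Of 23 detected members of the hexokinase, phosphofructokinase, aldolase, enolase, pyruvate kinase, lactate dehydrogenase and lactate carrier families, 12 were highest on replicate 2. This was not particular to them either, since 10 of the 18 proliferation genes and 7 of 14 detected adhesion and junction genes were highest there. Pfkp, a member of the 23, gave 11.78, 12.79 and 12.04. Pgk1, a glycolytic kinase outside the 23, gave 16.48, 17.08 and 16.66, and Slc2a1, also outside them, 14.29, 14.92 and 14.69. Ero1a, an oxidase of the endoplasmic reticulum, gave 11.15, 11.79 and 11.27. The cause was not tested.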
